A study of Mus musculus with 10 samples.

Results

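The transcription factor genes Osr1, Osr2 and Wt1 were followed across freshly sorted and cultured cells of the mouse kidney field. They were found by gene name among the non-control probes of an Agilent mouse expression array, and each was read by 1 probe, so that 3 of 34607 gene names, or 3 of 55681 probes, are described on all 10 arrays. Cells came from mice of a mixed C57BL6J/ICR background that carry a Six2-GFP transgene, in which green fluorescent protein marks cells with an active Six2 gene, and every group carried that transgene. The cells made 5 groups of 2 arrays. P0 progenitors were GFP-positive cells sorted by flow cytometry at P0, the day of birth. E11.5 progenitors were GFP-positive cells sorted from E11.5 embryos. Cells of that second kind grown in conditioned medium gave the 8-day culture and the 19-day culture, and the P0 fraction without GFP gave the P0 non-progenitors. No label states a second sort after culture, or that replicates are separate litters or cultures, so p-values measure only the spread between these samples, which may be technical. The names of the deposited arrays give E19.5 for the P0 samples, and the labels were followed.

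Osr1 and Osr2 encode related zinc finger proteins of the odd-skipped family. In mice, Osr1 is one of the first genes active in the intermediate mesoderm, the tissue that gives rise to kidneys and gonads, and kidneys do not form without it. Osr2 is known best for its part in the growth of the mouse palate. Wt1, the Wilms tumour gene, encodes a zinc finger protein that the early kidney mesenchyme needs to survive and to draw in the ureteric bud. It is kept at a high level in podocytes, the filtering cells of the glomerulus, and in the mesothelium that covers the organs. Six2 keeps nephron progenitors undifferentiated, and cells lose it when they begin to form a nephron.

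The probe sequences are shown because each value below is the brightness of 1 such oligonucleotide, and they define which stretch of each transcript was read. For Wt1 the first 30 of 60 bases are given.

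Osr1 probe: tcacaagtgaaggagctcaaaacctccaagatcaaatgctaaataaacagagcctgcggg

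Osr2 probe: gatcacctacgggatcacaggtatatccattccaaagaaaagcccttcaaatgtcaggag

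Wt1 probe, first bases: ggtattagctgcatcactgtgtggatgtca

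On mouse assembly mm9, as the array design gives it, the Osr1 probe lies on chromosome 12 from 9587390 to 9587449 and the Wt1 probe on chromosome 2 from 105013656 to 105013715, each within a span of 60 bases. The Osr2 probe lies on chromosome 15 from 35230691 to 35231706. That span of 1016 bases is longer than the 60-base probe, as it would be for an oligonucleotide that joins exons across an intron. The guanine and cytosine content was 45% for the Osr1 and Osr2 probes and 35% for Wt1. Exon and untranslated region annotation of this assembly was not used here. A single Wt1 probe gives no separate value for the splice forms of its transcript, and levels of different probes were not set against each other.

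Across the 10 arrays, 60.4% to 69.8% of 59305 non-control spots were well above background and no spot was saturated. Levels are given as log2 intensity relative to the 75th percentile of the same array, so that 0 is the brightness of a spot at that percentile. Six2, the gene behind the sort, followed the labels in the fresh cells. It stood at 4.19 ± 0.11 in P0 progenitors and 4.76 ± 0.09 in E11.5 progenitors, against -3.40 ± 1.62 in P0 non-progenitors, where it was well above background on 1 of 2 arrays (log2 level, SD, n = 2 each). In culture Six2 stood at 4.91 ± 0.43 after 8 days and 1.69 ± 0.89 after 19 days. The array number, 2 for each group, limits the precision of every value here. With so few arrays, 2 groups often fail to overlap even where nothing differs. The share of all probes without overlap was not computed for any comparison.

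Osr1 was high in the progenitors and the 8-day culture and low in the P0 non-progenitors, and it was well above background on all 10 arrays. The log2 levels of replicates 1 and 2 were 1.13 and 0.64 in P0 progenitors and 1.33 and 2.83 in E11.5 progenitors. They were 2.85 and 1.80 in the 8-day culture and -1.66 and 0.10 in the 19-day culture. In P0 non-progenitors they were -2.76 and -2.17, below every other array. The unscaled processed intensity ran from 43.9 in P0 non-progenitors replicate 1 to 2050 in 8-day culture replicate 1. Group means ordered as 8-day culture, E11.5 progenitors, P0 progenitors, 19-day culture and P0 non-progenitors, over a range of 4.79 log2 units. Arrays of the 8-day culture and E11.5 progenitors overlapped, the other neighbours in that order did not, and none of the 4 steps between neighbours passed the test (adjusted p from 0.187 to 0.909). The replicate gap of Osr1 was widest in the 19-day culture, at 1.76 log2 units, where 91.4% of tested probes had a smaller gap, and it was 1.49 in E11.5 progenitors.

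**Figure D1:**
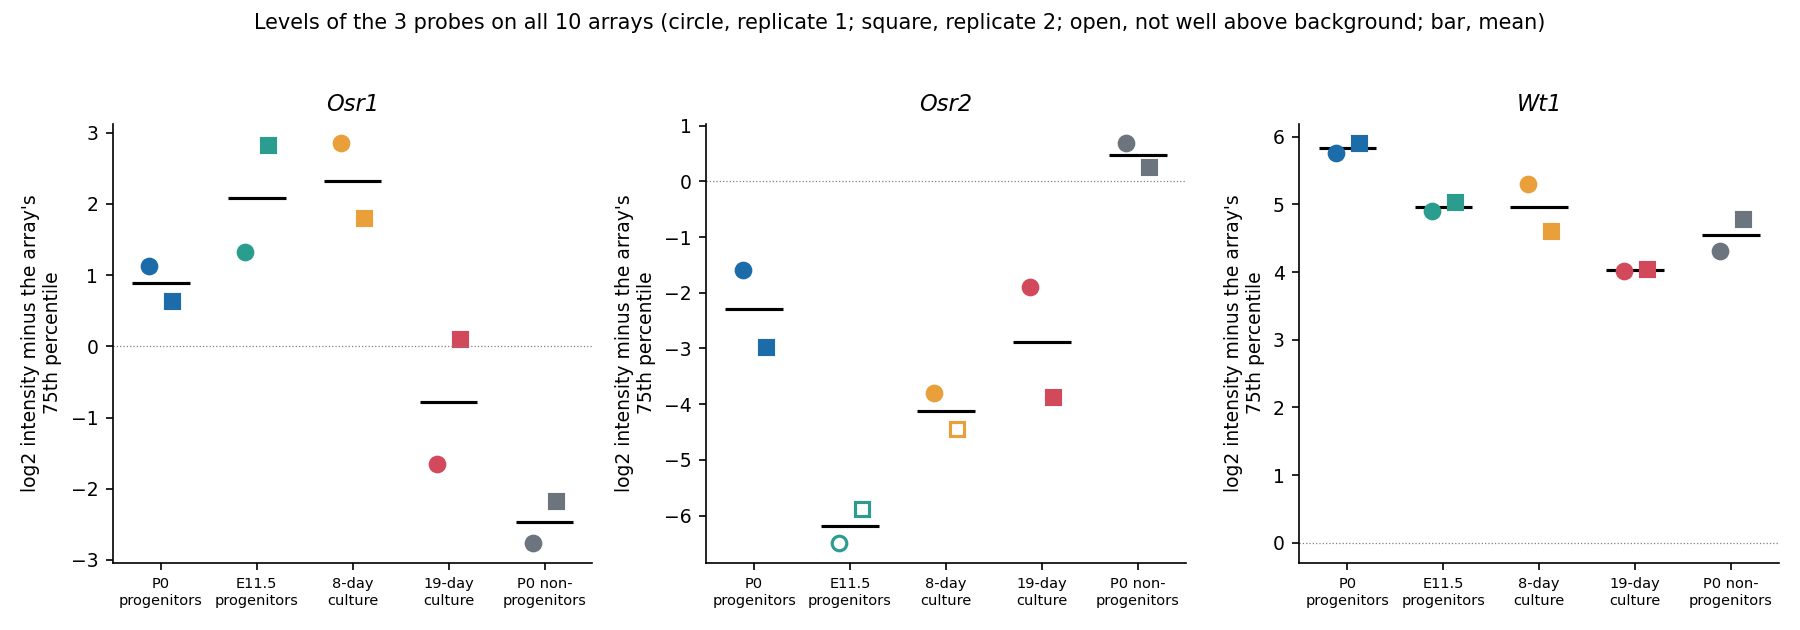
Log2 intensity minus the array's 75th percentile for the single probes of Osr1, Osr2 and Wt1, in P0 progenitors, E11.5 progenitors, 8-day culture, 19-day culture and P0 non-progenitors. Circles are replicate 1, squares replicate 2, open symbols spots not well above background and bars group means (n = 2); Osr1 is lowest and Osr2 highest in P0 non-progenitors, and Wt1 is highest in P0 progenitors.

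Osr2 had its highest level in P0 non-progenitors, where Osr1 was lowest, and its lowest in E11.5 progenitors. Its log2 levels were -1.59 and -2.98 in P0 progenitors and -6.49 and -5.88 in E11.5 progenitors. They were -3.80 and -4.44 in the 8-day culture and -1.90 and -3.87 in the 19-day culture. In P0 non-progenitors they were 0.68 and 0.26, above every other array. Neither E11.5 array was well above background, nor was replicate 2 of the 8-day culture, and the value of E11.5 replicate 1 was a stand-in set by the extraction software, with an error of 100% of the signal. In intensity, Osr2 read 81.3 and 32.3 in P0 progenitors and 477 and 332 in P0 non-progenitors. The 5 group means spanned 6.66 log2 units, of which the low end is only a bound. Arrays of P0 progenitors and the 19-day culture overlapped, as did those of the 19-day and 8-day cultures. The steps between P0 progenitors and P0 non-progenitors and between the 8-day culture and E11.5 progenitors had no overlap and did not pass (adjusted p = 0.0741 and 0.178). As with Osr1, the replicates lay furthest apart in the 19-day culture (1.97 log2 units), where replicate 1 was low in Osr1 and high in Osr2.

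Wt1 was bright in every group and varied least of the 3 genes. Its log2 levels were 5.76 and 5.90 in P0 progenitors and 4.90 and 5.03 in E11.5 progenitors. They were 5.30 and 4.61 in the 8-day culture and 4.02 and 4.05 in the 19-day culture. In P0 non-progenitors they were 4.31 and 4.78. Both P0 progenitor arrays were above all others and both 19-day arrays below all others, with the 3 remaining groups between them. Of those, the 8-day arrays overlapped both the E11.5 progenitors and the P0 non-progenitors. Processed intensities were 13300 and 15200 in P0 progenitors, against 5890 and 7590 in P0 non-progenitors, so that the cells without GFP still gave a strong Wt1 signal. The group means spanned 1.79 log2 units, which is 3.46-fold, and no step between neighbouring groups passed the test (adjusted p from 0.108 to 0.991). The replicate gap was at most 0.69 log2 units, in the 8-day culture, and 0.03 in the 19-day culture, where 4.97% of tested probes had a smaller one.

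The progenitors at birth were compared with the GFP-negative cells of the same age, which asks how the genes divide between the progenitor pool and the rest of the sorted tissue. Osr1 was 10.2-fold higher in P0 progenitors (adjusted p = 0.0336), a log2 change of 3.35 with an SE of 0.72. Wt1 was 2.44-fold higher (adjusted p = 0.0208), a log2 change of 1.29 with an SE of 0.24. Osr2 had the opposite sign, with a mean of -2.28 in P0 progenitors and 0.47 in P0 non-progenitors and no overlap of the arrays, and did not pass (log2 change -2.76 ± 0.74 SE, 95% confidence interval -4.49 to -1.02, adjusted p = 0.0741). Thus 2 of the 3 probes passed, where 7.09% of the 39818 probes tested did, 3.65% upwards and 3.44% downwards. P-values are from limma across all tested probes with Benjamini-Hochberg adjustment in each comparison, 2-sided, and 0.05 was the threshold throughout. In sorted bulk cells, fewer cells of a type and less RNA per cell cannot be told apart. The Osr1 call was lost when any 1 of the 4 arrays was left out (adjusted p from 0.111 to 0.18), and with normexp background correction (log2 change 2.29, adjusted p = 0.0619). That of Wt1 was lost without either P0 progenitor array or without P0 non-progenitors replicate 1 (0.101 to 0.133). Osr2 passed without either 19-day array (0.0424 and 0.0434) and with normexp background correction (log2 change -1.87, adjusted p = 0.0124).

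Of 18 other factors of the kidney mesenchyme, 6 rose in P0 progenitors and 0 fell, with a median log2 change of 1.36 beside 0.12 over all tested probes. Six2 was 193-fold higher (adjusted p = 0.00198). Cited1, a cofactor of the youngest progenitors, was 29.7-fold higher (adjusted p = 0.00312), and Wnt4, a signal in nephron formation, was 13.4-fold higher (adjusted p = 0.0115). Pax2, a paired-box factor of the nephron lineage, was 3.94-fold higher (adjusted p = 0.0037). None of 7 genes for proteins that bind Wt1 passed in limma, and their median log2 change was 0.19.

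Marker genes of many other cell types were brighter in P0 non-progenitors, among them those of podocytes, which are known to hold Wt1. For the mesothelium, also known to hold it, 3 of 6 tested list genes passed. None of the defining mesothelial genes named below was among those 3. Of 13 tested podocyte genes, 8 were lower in P0 progenitors and 0 higher, including Nphs1, the slit diaphragm gene nephrin (3.02-fold lower, adjusted p = 0.0452). Podxl, a podocyte surface protein, was at least 72.5-fold lower, since it was not well above background in P0 progenitors (adjusted p = 0.00111). Ptpro, a receptor phosphatase of podocytes, was 33.5-fold lower (adjusted p = 0.0148). The mean podocyte level, relative to its mean over all arrays, was -0.36 and -0.30 on the P0 progenitor arrays and 2.70 and 2.76 on the P0 non-progenitor arrays. Of 6 tested mesothelial genes, 3 were lower in P0 progenitors, among them Gpm6a (35.4-fold, adjusted p = 0.0117) and Krt18 (14.8-fold, adjusted p = 0.0296), and the defining mesothelial genes Upk1b, Msln and Lrrn4 were not well above background on any of the 10 arrays. Another defining gene, Upk3b, was well above background on both P0 non-progenitor arrays and on none of the other 8, and did not pass (adjusted p = 0.402). Of 13 renal stroma genes, 7 were lower in P0 progenitors and 0 higher, led by the renin gene Ren1 (97.5-fold lower, adjusted p = 0.00164) and the collagen gene Col3a1 (78.9-fold lower, adjusted p = 0.00073). Lists for other cells were also lower in P0 progenitors, with 7 of 10 tubule and collecting duct genes, 5 of 6 endothelial, 4 of 6 erythroid and 2 of 6 macrophage and leukocyte genes passing and 0 higher. Relative to their means over all arrays, tubule and collecting duct genes stood at 0.92 and -0.14 on the P0 progenitor arrays, against 4.92 and 4.79 on the P0 non-progenitor arrays. The part of these cell types in the Wt1 and Osr2 levels of P0 non-progenitors was not tested.

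**Figure D2:**
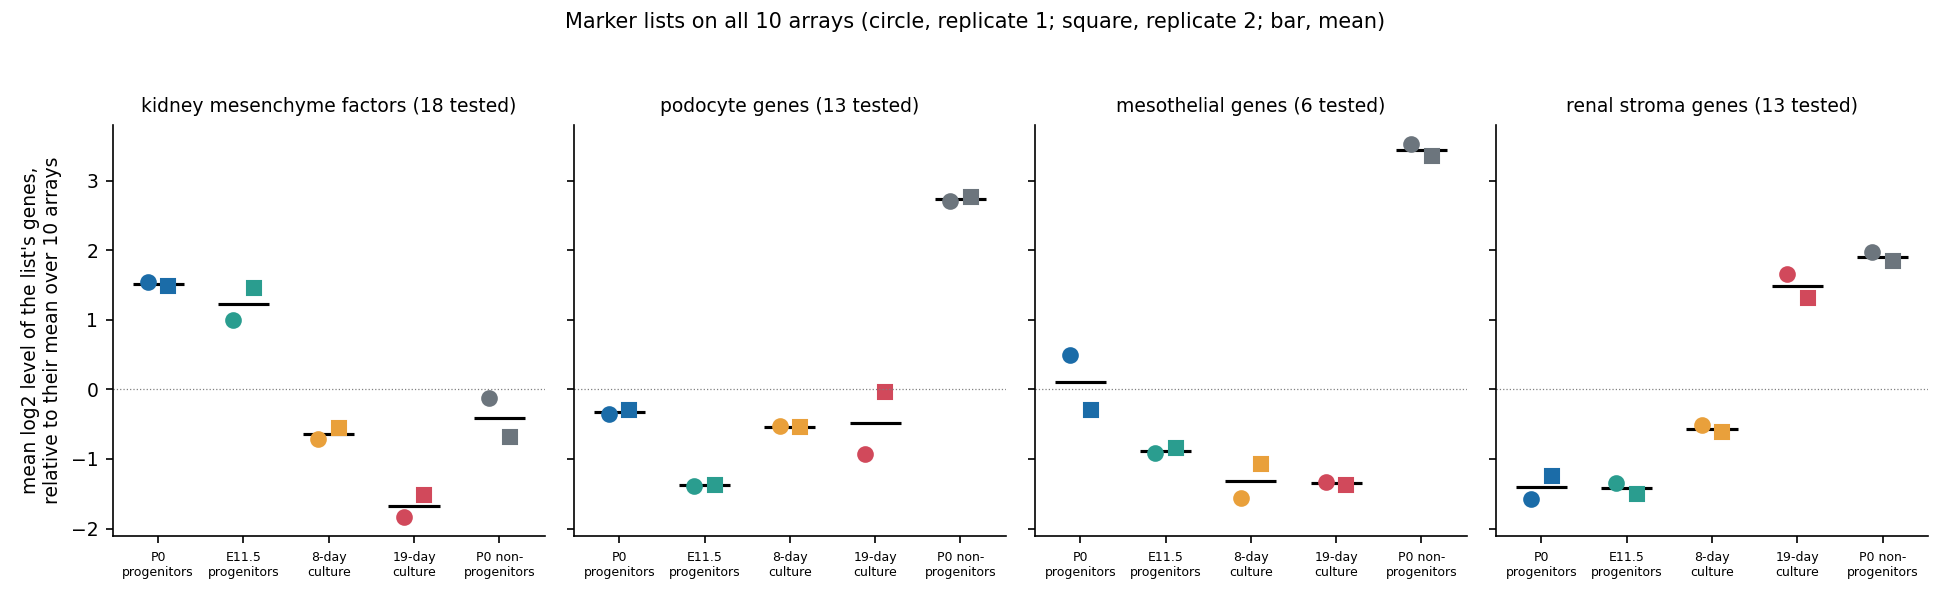
Mean log2 level of the tested genes of 4 marker lists on each array, relative to each gene's mean over the 10 arrays, in the same 5 groups. Circles are replicate 1, squares replicate 2 and bars means. The means of podocyte genes and of the tested genes of the mesothelial list are high in P0 non-progenitors alone among these groups. Those tested genes do not include Upk1b, Msln or Lrrn4. The mean of the renal stroma genes is high in the 19-day culture and P0 non-progenitors. Of its 13 genes, 2, Foxd1 among them, were lower in the 19-day culture than in E11.5 progenitors.

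The E11.5 progenitors were set against the same P0 non-progenitor arrays, a comparison that also spans the change in age. Osr1 was 23.3-fold higher in E11.5 progenitors, a log2 change of 4.54 (SE 0.72, adjusted p = 0.00595). Osr2 was at least 30.7-fold lower (adjusted p = 0.00149). This is a lower bound, because no E11.5 array measured it above background, and it sets the P0 non-progenitor mean against the lowest well-measured signal of each E11.5 array. Wt1 did not pass, at 4.97 ± 0.09 in E11.5 progenitors and 4.54 ± 0.33 in P0 non-progenitors (log2 level, SD, n = 2 each, log2 change 0.42, 95% confidence interval -0.13 to 0.98, adjusted p = 0.286). So 2 of the 3 probes passed, where 15.7% of all tested probes did, 8.54% upwards and 7.12% downwards. Both calls held with each of the 10 arrays left out in turn. The Osr1 change ranged from 3.80, without E11.5 replicate 2, to 5.29, and that of Osr2 from -6.96 to -6.36. With normexp background correction, which raises low signals by an offset, the log2 changes were 3.38 for Osr1 and -2.74 for Osr2, and both passed. Of the 18 mesenchyme factors, 8 rose in E11.5 progenitors and 0 fell, with a median log2 change of 1.41 beside 0.24 over all tested probes. Of the 13 podocyte genes, 9 were lower in E11.5 progenitors, and Nphs1 did not pass (log2 change -1.26, adjusted p = 0.0596).

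Progenitors of both ages were compared directly. Osr2 was at least 4.54-fold higher in P0 progenitors than in E11.5 progenitors (fitted log2 change 3.90 ± 0.74 SE, adjusted p = 0.0377). Osr1 had a log2 change of -1.20 (95% confidence interval -2.87 to 0.47, adjusted p = 0.44), and Wt1 one of 0.87 (95% confidence interval 0.31 to 1.42, adjusted p = 0.108), and neither passed. All P0 progenitor arrays were above the E11.5 arrays for Osr2 and for Wt1, and below them for Osr1. How many of all probes were separated in this way was not computed. Here 1 of the 3 probes passed, where 3.47% of all tested probes did, 1.86% upwards and 1.61% downwards. The Osr2 call was lost in 8 of 10 fits that left out 1 array, all but those without a 19-day array (adjusted p from 0.0536 to 0.201), with normexp background correction (log2 change 0.87, adjusted p = 0.226), with slide as a block (adjusted p = 0.0541) and in a fit of these 4 arrays alone (adjusted p = 0.0684). Wt1 passed with the slide block (adjusted p = 0.049), in the fit of these 4 arrays alone (adjusted p = 0.0428) and without either 8-day array (0.049 and 0.0491). Of the mesenchyme factors, Wnt4 rose in P0 progenitors (10-fold, adjusted p = 0.0294), and Meox1, a homeobox gene of early progenitors, fell (4.64-fold, adjusted p = 0.0445), while Six2 did not pass (log2 change -0.57, adjusted p = 0.733). Of 10 tubule and collecting duct genes, 3 rose in P0 progenitors and 0 fell. Relative to its mean over all arrays, that list stood at 0.92 and -0.14 on the P0 progenitor arrays and -1.65 and -1.39 on the E11.5 arrays. The part of other cells within the sorted fractions in the Osr2 change was not tested.

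**Figure D3:**
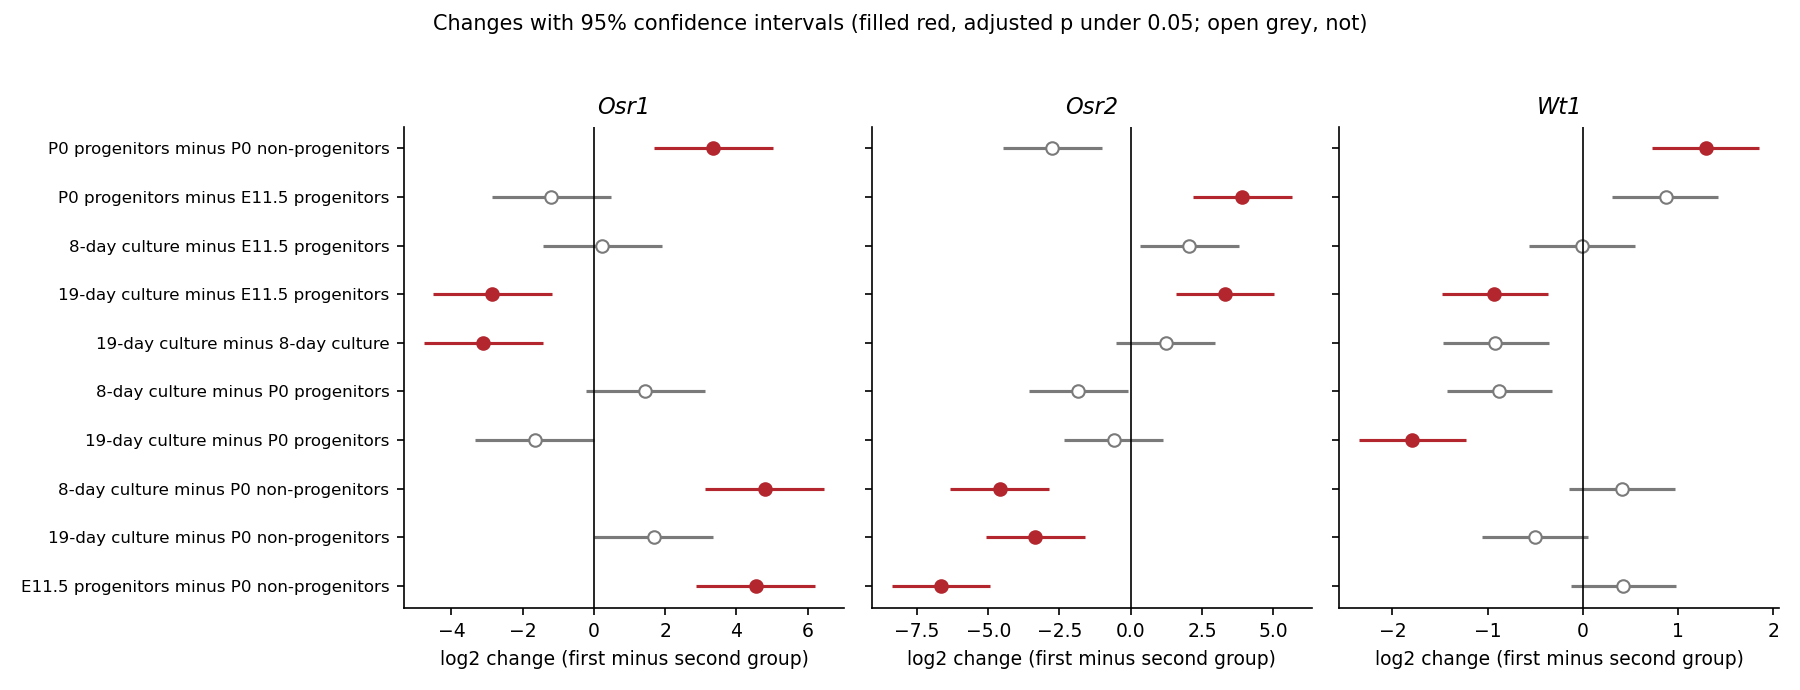
Log2 change of Osr1, Osr2 and Wt1 in 10 comparisons, first minus second group, from the fit of all 10 arrays. Points are estimates and bars 95% confidence intervals, with filled red for adjusted p under 0.05; Osr1 and Osr2 both passed, with opposite signs, against P0 non-progenitors in the 8-day culture and in E11.5 progenitors, comparisons that share the P0 non-progenitor arrays.

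Culture of E11.5 progenitors asks whether they keep their state outside the embryo. After 8 days none of the 3 genes passed against E11.5 progenitors in limma. Osr2 alone of the 3 had an unadjusted p below 0.05 (0.0257), as had 7782 of all 39818 tested probes. Osr1 had a log2 change of 0.24 (95% confidence interval -1.43 to 1.91, adjusted p = 0.909), and the interval of Wt1 was narrower, from -0.57 to 0.55 around -0.01 (adjusted p = 0.991). Osr2 had a fitted log2 change of 2.06 (95% confidence interval 0.33 to 3.80, adjusted p = 0.178). Only 1 of 2 culture arrays and no E11.5 array was well above background for Osr2, so no bound on its fold is given. These 0 of 3 calls stand beside 4.48% of all tested probes, 2.66% upwards and 1.82% downwards. The 8-day replicates lay on different slides, and replicate 1 alone shared the slide of the fresh cells. On that slide, with the lone culture array taken to vary like the other groups, the log2 changes were 0.77 for Osr1, 2.38 for Osr2 and 0.33 for Wt1 (adjusted p = 0.627, 0.158 and 0.477). Among the mesenchyme factors 5 of 18 fell in the 8-day culture and 1 rose. Foxc2, a forkhead factor of the mesenchyme, was at least 813-fold lower (adjusted p = 0.00168), Meox1 was 88.9-fold lower (adjusted p = 0.00157) and Pax2 was 48.7-fold lower (adjusted p = 0.000321). Six2 did not pass (log2 change 0.15, 95% confidence interval -1.50 to 1.80, adjusted p = 0.948).

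After 19 days all 3 genes passed against E11.5 progenitors, Osr1 and Wt1 downwards and Osr2 upwards. Osr1 was 7.27-fold lower in the 19-day culture, a log2 change of -2.86 (SE 0.72, adjusted p = 0.0352). Wt1 was 1.9-fold lower, a log2 change of -0.93 (SE 0.24, adjusted p = 0.0391). Osr2 was at least 3-fold higher (fitted log2 change 3.30 ± 0.74 SE, adjusted p = 0.0242). In this comparison 15.3% of all tested probes passed, 6.75% upwards and 8.59% downwards. No 19-day array overlapped an E11.5 array for any of the 3 genes, and the share of all probes without such overlap was not computed. All E11.5 arrays lay on slide 1 and both 19-day arrays on slide 2, so only the 8-day pair links the slides. With slide as a block, none of the 3 calls remained, and the log2 changes were -1.81 for Osr1, 3.94 for Osr2 and -0.23 for Wt1 (adjusted p = 0.484, 0.161 and 0.727). The part of the slide in these changes cannot be told apart beyond that 1 pair.

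Leaving out arrays also moved these calls. That of Osr1 was lost without 19-day replicate 1 (log2 change -1.98, adjusted p = 0.171), without E11.5 replicate 2 (-2.11, adjusted p = 0.14), and without any 1 of the 4 P0 arrays, which are not in the comparison but help estimate the spread (0.0565 to 0.0616). That of Osr2 was lost without 19-day replicate 1 (log2 change 2.32, adjusted p = 0.115) or either E11.5 array (0.0547 and 0.0923), and with normexp background correction (0.50, adjusted p = 0.316). The Wt1 call was lost without any 1 of the 4 compared arrays (0.0927 to 0.146) or either P0 progenitor array (0.0696 and 0.0698), and with quantile normalization (-0.72, adjusted p = 0.0925).

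Of the 18 mesenchyme factors, 10 were lower in the 19-day culture than in E11.5 progenitors and 1 was higher, with a median log2 change of -2.72 beside 0.02 over all tested probes. Meox1 was at least 385-fold lower (adjusted p = 7.98e-05), Foxc2 248-fold lower (adjusted p = 0.00119) and Six2 8.4-fold lower (adjusted p = 0.0265). Bmp7, a growth factor that progenitors need to survive, was at least 39.3-fold lower (adjusted p = 0.000272). Renal stroma genes moved the other way, 7 of 13 higher and 2 lower. The receptor gene Pdgfra was at least 79.1-fold higher (adjusted p = 0.000545), Col1a1 153-fold higher (adjusted p = 0.000116), and Foxd1, the forkhead factor of stromal progenitors, 124-fold lower, from 1 of 2 culture arrays above background (adjusted p = 0.0104). The mean stroma level was 1.66 and 1.31 on the 19-day arrays and -1.34 and -1.50 on the E11.5 arrays. Whether stroma cells were present, and their part in the changes of Osr1, Osr2 and Wt1, was not tested. Of 13 podocyte genes 2 were higher, Synpo, an actin-binding podocyte protein (46.2-fold, adjusted p = 0.000986, with 1 of 2 E11.5 arrays above background) and Kirrel, a slit diaphragm protein (12.3-fold, adjusted p = 0.00761), and Tcf21 was lower (2.25-fold, adjusted p = 0.0349). Nphs1 did not pass (log2 change -0.03, adjusted p = 0.967). The calls of these list genes were not followed with slide as a block or with arrays left out, and the same slides separate the groups.

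Of the genes for proteins that bind Wt1, Pawr, which encodes the apoptosis regulator Par-4, was 62.6-fold higher in the 19-day culture (adjusted p = 0.00408), from 2 of 2 arrays above background there and 1 of 2 in E11.5 progenitors. Cited2, a transcriptional coregulator, was 3.17-fold lower (adjusted p = 0.00173), and Trp53, the p53 gene, was 2.71-fold lower (adjusted p = 0.00499). The 4 others, with a median of -0.63 over the whole list, did not pass. These calls too were not followed with slide as a block or with arrays left out.

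Between the culture times, Osr1 was 8.61-fold lower in the 19-day culture than in the 8-day culture (-3.11 on the log2 scale, SE 0.72, adjusted p = 0.0439), and it was the 1 probe of 3 that passed, where 7.15% of all tested probes did, 2.46% upwards and 4.7% downwards. Wt1 had a log2 change of -0.92 (95% confidence interval -1.47 to -0.36, adjusted p = 0.0659) and Osr2 one of 1.24 (95% confidence interval -0.50 to 2.97, adjusted p = 0.407). On slide 2 alone, with 1 array of the 8-day culture taken to vary like the 19-day pair, the Osr1 change was -2.58 and did not pass (adjusted p = 0.286). Of the 10 fits that each omitted an array, 7 ended its call, namely those without 19-day replicate 1 (log2 change -2.22, adjusted p = 0.196), either 8-day array (0.0917 and 0.17) or any 1 of the 4 P0 arrays (0.0723 to 0.0796). Wt1 passed without 8-day replicate 2 (log2 change -1.26, adjusted p = 0.035). Six2 was 9.32-fold lower in the 19-day culture (adjusted p = 0.0373), as were 4 more of the 18 mesenchyme factors, and 5 of 13 stroma genes were higher, with 0 lower.

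The cultures were also set against the progenitors at birth. Wt1 was 3.46-fold lower in the 19-day culture than in P0 progenitors (-1.79 on the log2 scale, SE 0.24, adjusted p = 0.00517). Osr1 and Osr2 did not pass there (log2 change -1.66, adjusted p = 0.187, and -0.60, adjusted p = 0.652). This was 1 of 3 probes, where 10.8% of all tested probes passed, 4.71% upwards and 6.13% downwards. The Wt1 call held with each array left out in turn, with changes from -1.86 to -1.72, and did not hold with slide as a block (-1.10, adjusted p = 0.111). In the 8-day culture 0 of the 3 probes passed in limma against P0 progenitors, where 3.49% of all tested probes did (2.09% upwards and 1.39% downwards). Of the 3, 2 had an unadjusted p below 0.05, Osr2 (0.0403) and Wt1 (0.00705), as had 7522 of all 39818 tested probes. The log2 changes were 1.44 for Osr1, -1.84 for Osr2 and -0.88 for Wt1 (adjusted p = 0.332, 0.24 and 0.102).

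Against P0 non-progenitors, the 8-day culture held the widest Osr1 difference of the 10 comparisons. Osr1 was 27.7-fold higher in the 8-day culture (4.79 on the log2 scale, SE 0.72, adjusted p = 0.00529), and Osr2 was 24.2-fold lower, with 1 of 2 culture arrays above background (-4.60 on the log2 scale, SE 0.74, adjusted p = 0.00749). Wt1 did not pass (log2 change 0.41, 95% confidence interval -0.15 to 0.97, adjusted p = 0.335). These were 2 of 3 probes, where 11.4% of all tested probes passed, 6.57% upwards and 4.8% downwards. On slide 1 alone, with culture replicate 1, both passed, in a fit that takes the spread of that lone array from the other groups (Osr1 5.32, adjusted p = 0.0166, and Osr2 -4.28, adjusted p = 0.0311). The Osr1 call also held with each array left out in turn, and that of Osr2 was lost in 1 of those 10 fits, without P0 non-progenitors replicate 1 (adjusted p = 0.0551). With normexp background correction the log2 changes were 3.63 and -2.55, and both passed.

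In the 19-day culture against P0 non-progenitors, Osr2 was 10.2-fold lower (-3.36 on the log2 scale, SE 0.74, adjusted p = 0.0361). Osr1 (log2 change 1.68, 95% confidence interval 0.01 to 3.35, adjusted p = 0.205) and Wt1 (-0.50, 95% confidence interval -1.06 to 0.05, adjusted p = 0.251) did not pass. The 1 probe of 3 stands beside 7.8% of all tested probes, 3.56% upwards and 4.24% downwards. The Osr2 call was lost with slide as a block (-2.72, adjusted p = 0.394), and without 19-day replicate 2 (-2.37, adjusted p = 0.129), either 8-day array (0.054 and 0.0542) or either P0 non-progenitor array (0.125 and 0.168). Podocyte genes were lower in 7 of 13 cases in each culture than in P0 non-progenitors.

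To place the 3 patterns among other genes, 11651 genes with an ordinary RefSeq symbol and a probe well above background on all arrays were ranked by likeness. The measure was the root mean square difference in log2 level over the 10 arrays, after each probe was centred on its own mean, and it describes the same arrays used above. Nearest to Osr1 were Ngfr, the low-affinity neurotrophin receptor, at 0.63 log2 units, then Ppih at 0.71, Pgm2l1 at 0.83, Vcan, the matrix proteoglycan versican, at 0.84, and Sobp at 0.89. Nearest to Osr2 were the small heat shock protein gene Cryab at 0.71 and the glutathione transferase gene Gsta3 at 0.92. They were followed by Chchd10 at 1.00, the small heat shock protein gene Hspb1 at 1.02 and Cpt1a, an enzyme of fatty acid oxidation, at 1.02. For Osr2 these distances include 3 arrays on which it was not well above background, so they and their order are approximate. Wt1, whose levels varied least, had closer neighbours. They were the histone chaperone gene Anp32e at 0.21, the replication fork gene Tipin at 0.23, the nuclear pore gene Nup153 and the anchoring protein gene Akap13 at 0.24 each, and the helicase gene Mcm9 at 0.25.

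**Figure D4:**
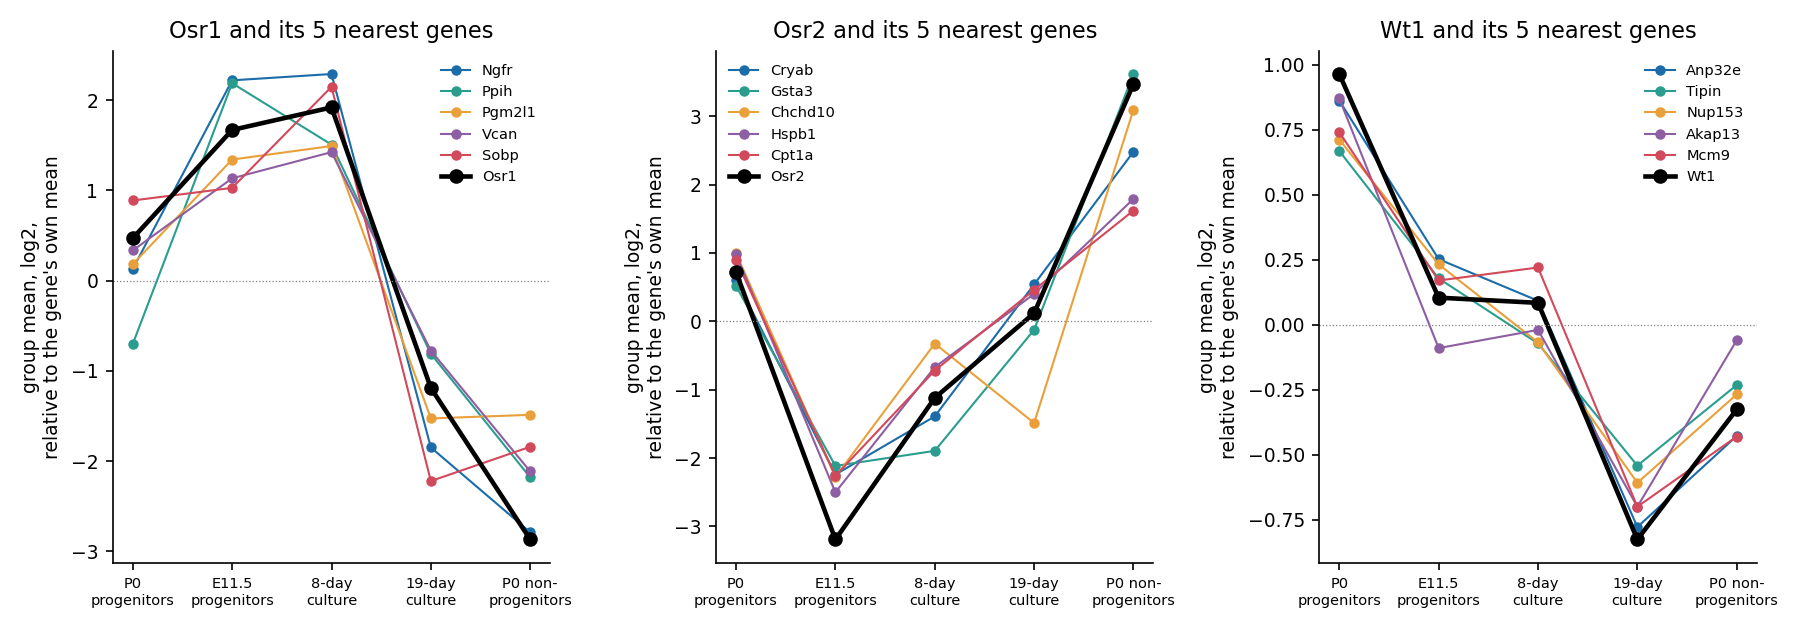
Group means of Osr1, Osr2 and Wt1 (black) and of the 5 genes nearest to each (colours), in log2 units relative to each gene's own mean, in the same 5 groups; lines only join the points of a gene. The Osr1 set peaks in E11.5 progenitors and the 8-day culture, the Osr2 set in P0 non-progenitors and the Wt1 set in P0 progenitors.

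Wt1os, the antisense transcript beside Wt1, had 2 probes, on chromosome 2 of mm9 from 104917221 to 104917280 and from 104918096 to 104918155. The first was well above background on 1 of 10 arrays, P0 progenitors replicate 1, and was not tested. The second read 38.4 and 109 in P0 progenitors and 10.4 and 153 in P0 non-progenitors, where replicate 1 was not well above background (processed intensity). It passed in 0 of 10 comparisons in limma, none of them with an unadjusted p below 0.05, and its SE of 1.38 log2 units was wider than that of any of the 3 genes.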

How the data were processed

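The authors deposited scanner output of 10 single-colour Cy3 arrays, which the file headers credit to Agilent Feature Extraction 11.5.1.1. The values used are the processed intensity of each spot, which the extraction software background-subtracts and detrends within an array per the file headers, with no scaling between arrays. In the deposited values of P0 progenitors replicate 2, numbers are rounded to 3 significant digits and 62 gene names are altered, so names were taken from an E11.5 array by probe.

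From these deposited intensities log2 values were computed and each array's 75th percentile over non-control spots was subtracted. Spots flagged as outliers were set missing and spots of a probe averaged, which left 11 tested probes with a missing value. Of 55681 probes, 39818 were tested, those well above background on both arrays in 1 or more groups. Group means were fitted over the 10 arrays with limma 3.58.1 in R 4.3.3 (tables read by version 1.17.8 of data.table), with an intensity trend, 5 residual and 2.52 prior degrees of freedom, in 10 comparisons adjusted by Benjamini-Hochberg at 0.05. Missing spots left single arrays out of a probe's fit, none of them in Osr1, Osr2 or Wt1. The procedure was tested on simulated data, made from probes well above background on all 10 arrays and without a slide effect. That test therefore does not cover the low Osr2 signals or differences between slides. Where a group had no array well above background and the other group had both, the fold is a bound. Each dim array then stood at no less than its lowest well-measured signal.

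Members and lists were chosen with earlier results of these data known. Besides the 3 genes and Wt1os, the text names for each the 5 genes nearest in pattern, up to 4 list genes with the largest changes that passed, and Six2 and Nphs1 always. Foxd1 was named after its values were seen. Values of some list genes that the rule picks are not reported here. Alternatives were quantile normalization, normexp correction (offset 50), testing every probe, testing probes above background on all 10 arrays, no intensity trend, a replicate block, a slide block, the arrays of 1 slide, the compared groups alone, and each array left out. They were followed for the 3 genes and for counts of all probes, and not for single list genes. Replicate numbers did not pair the samples. Over 10 pairs of groups, same-numbered arrays deviated together with correlations from -0.02 to 0.02.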

Additional observations from a re-analysis of the deposited data

How the results depend on the processing

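No change of Osr1, Osr2 or Wt1 that passed took the opposite sign under any alternative run. The number of the 3 probes that passed moved as follows. For 19-day culture against 8-day culture it was 1, and 0 with no filter, no intensity trend, a replicate block (Osr1 adjusted p = 0.0563), a slide block, slide 2 alone or the compared groups alone, and 2 with a filter on all 10 arrays. For 19-day culture against E11.5 progenitors it was 3. It was 2 with quantile normalization, no filter or a replicate block, each of which ended the Wt1 call (adjusted p = 0.0925, 0.0533 and 0.0596). It was also 2 with a filter on all 10 arrays, which does not test Osr2. It fell to 1 with normexp correction, no intensity trend or the compared groups alone, and to 0 with a slide block. For 19-day culture against P0 non-progenitors it was 1, and 0 with a filter on all 10 arrays, no filter, a slide block or the compared groups alone, and for 19-day culture against P0 progenitors it was 1, and 0 with a slide block. For P0 progenitors against E11.5 progenitors it was 1 (Osr2), and 0 with normexp correction, a filter on all 10 arrays, no filter or no intensity trend, while with a slide block or the compared groups alone it was 1 through Wt1 in place of Osr2, and for P0 progenitors against P0 non-progenitors it was 2 (Osr1 and Wt1), and 0 without the trend, while with normexp correction it was 2 with Osr2 in place of Osr1. For 8-day culture and for E11.5 progenitors, each against P0 non-progenitors, it was 2, and 1 with the filter on all 10 arrays, which does not test Osr2. The replicate block, on numbers that do not pair the samples, changed no other call. Leaving out 1 array gave 0 to 1 for 19-day against 8-day culture, 0 to 3 for 19-day culture against E11.5 progenitors, 0 to 1 for 19-day culture against P0 non-progenitors, 1 to 1 for 19-day culture against P0 progenitors, 0 to 1 for P0 against E11.5 progenitors, 0 to 3 for P0 progenitors against P0 non-progenitors, 1 to 2 for 8-day culture and 2 to 2 for E11.5 progenitors against P0 non-progenitors, and 0 to 0 for the other 2. The cause of these shifts was not tested, beyond there being fewer arrays or probes in some fits. Quantile normalization moved the median change of all probes by under 0.1 log2 units, and the share of higher calls among all probes called was 37.1% with it and 51.5% without it for P0 progenitors against P0 non-progenitors, 66.3% and 53.5% for P0 against E11.5 progenitors, 45.5% and 34.3% for 19-day against 8-day culture, 44.9% and 60% for 8-day culture against P0 progenitors, and, against P0 non-progenitors, 41.7% and 57.8% for 8-day culture and 40.1% and 54.5% for E11.5 progenitors. Counts of all probes called, from which the percentages beside each comparison come, were 2823 for P0 progenitors against P0 non-progenitors and 777 at the lowest over the alternatives, 1381 and 119 for P0 against E11.5 progenitors, 6110 and 1922 for 19-day culture against E11.5 progenitors, 1388 and 150 for 8-day culture and 4314 and 860 for 19-day culture against P0 progenitors, and, against P0 non-progenitors, 4530 and 2381 for 8-day culture, 3107 and 618 for 19-day culture and 6235 and 2990 for E11.5 progenitors. They were 1785 and 0 for 8-day culture against E11.5 progenitors and 2848 and 0 for 19-day against 8-day culture, each 0 from limma on the compared groups alone, where 5854 and 7340 probes had an unadjusted p below 0.05, and for the second also on slide 2 alone (7754 such probes). Osr2 was near background in E11.5 progenitors and the 8-day culture. Its folds in comparisons with E11.5 progenitors are therefore given as bounds or not at all. The 24.2-fold difference between the 8-day culture and P0 non-progenitors is a fitted value and not a bound. It includes 1 culture array that was not well above background.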
